A study of Mus musculus with 4 samples.

Results

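Voltage-gated sodium and calcium channels are the membrane pores that open when a cell depolarizes, and 39 genes for their subunits were described here in RNA-seq counts of mouse telencephalic tissue at embryonic day 13 (E13). The members are the rows of the deposited count table whose gene symbol is that of a sodium channel alpha or beta subunit (Scn), or of a calcium channel alpha1 (Cacna1), alpha2delta (Cacna2d), beta (Cacnb) or gamma (Cacng) subunit, and they are 39 of the 27293 genes in the table. The symbols fixed the choice, and no measured value entered it. By role they are 9 sodium channel alpha and 4 sodium channel beta subunits, 4 Cav1, 3 Cav2 and 3 Cav3 alpha1 subunits, 4 alpha2delta, 4 calcium channel beta and 8 gamma subunits. Scn7a was not analysed here.

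The study asked what the innate immune adaptor STING does in early neurogenesis. RNA was taken from embryos of the C57BL/6 strain, and there are 2 libraries of the genotype WT and 2 of the genotype STINGf/f;Nestin-Cre, called cKO. In cKO the STING gene carries loxP sites in both copies and Cre is driven by the Nestin promoter. Recombination is thus meant to take place in neural progenitors and their descendants and not in the other cells of the tissue. How far it went, and in which cells, was not measured here. The labels give no treatment, state neither litter nor sex, and do not say whether a library is from 1 embryo or from several, so p-values measure the spread between these libraries, which may be technical. The title of WT 2 carries the abbreviation "nes", which is not explained, and whether WT 2 carries the Cre transgene is not stated.

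In an excitable cell, the alpha subunit of a sodium channel forms the pore that carries the rising phase of the action potential, and beta subunits set its gating and membrane density and act as adhesion molecules. The alpha1 subunit of a calcium channel likewise forms the pore and the voltage sensor. The Cav1 family carries the long-lasting L-type current, the Cav2 family the P/Q-, N- and R-type currents of nerve endings, and the Cav3 family the low-threshold T-type current. The cytoplasmic beta and the extracellular alpha2delta subunits bring Cav1 and Cav2 pores to the membrane, while most gamma proteins in brain are known as auxiliary subunits of AMPA glutamate receptors (TARPs). In the embryonic cortex, sodium and calcium channels appear in newborn neurons before synapses form, and Scn3a is known as the sodium channel alpha gene of the fetal brain.

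Total counts on genes ran from 17209654 to 18533391 a library, so 3 counts, the limit that a count of 0 allows, equal 0.162 to 0.174 CPM, the count scaled to a common library size. This limit covers counting error only. The members together held 0.179% to 0.203% of all counts. The targeted gene, listed as Tmem173, had 20 and 19 counts in the WT pair and 18 and 22 in the cKO pair (log2 fold change 0.02, SE 0.45), so the counts of the whole gene do not separate the genotypes, and the libraries are named here by their labels. Where a pair of values is given for a genotype, replicate 1 comes first. WT 2 had 0 counts over 4 Y-linked genes (Uty, Kdm5d, Eif2s3y and Ddx3y), where the other 3 libraries had 1848 to 3002. Markers of the labelled tissue were present in every library, with summed levels of 4907 to 5742 CPM for 10 cortical neuron genes and 2174 to 2381 CPM for 8 cortical progenitor genes. WT 1 stood apart, with 52.6 CPM summed over 6 choroid plexus genes against 6.94 to 8.91 in the other libraries, and 288 CPM over 7 genes of mesenchyme and meninges against 40.0 to 75.9.

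The promoters are shown first, because the members differed far more from each other in level than between the genotypes. RefSeq on GRCm38.p6 gave a start for 29 of the 39 members, and the 250 bases before it were read on the gene's strand. The 10 members without a start include Cacng4, Scn3b, Cacna1h and Cacna1g, which lie above 5 CPM per kilobase of exons. Where a gene had several starts, the one with the most CpG dinucleotides was taken. Some windows lie inside the annotated gene and not before its outermost start, among them those of Cacnb3, Scn4a and Cacng8, which holds 0 CpG. The 8 members with a promoter and a mean level of at least 5 CPM per kilobase of exons had a median of 27.5 CpG (0 to 36). The 10 members between 1 and 5 CPM per kilobase had a median of 16 (1 to 50), and the 11 below 1 a median of 5 (3 to 30). Over every start, the median was 8.5 for the 40 promoters of members and 6 for all 32851 promoters of the same length. The ranges of the 3 sets overlapped, and this is a description of these windows without a test. The letters GGGCGG, the GC box, were searched on both strands and occurred in 14 of the 40 promoters of members (35%) and in 32.7% of all promoters. Each CpG is in capitals in the following windows. Cacnb3 is among the most abundant members and Cacna2d1 is the member in which the cKO libraries differed most, Scn1a is an alpha subunit of low level, and Scn4a, the pore of skeletal muscle, was near 0. The Cacna2d1 window, at chr5:15934441-15934690 on the plus strand, holds 36 CpG. The Cacnb3 window, at chr15:98634517-98634766 on the plus strand, holds 23. The Scn1a window, at chr2:66440838-66441087 on the minus strand, and the Scn4a window, at chr11:106349391-106349640 on the minus strand, hold 4 each.
Cacna2d1: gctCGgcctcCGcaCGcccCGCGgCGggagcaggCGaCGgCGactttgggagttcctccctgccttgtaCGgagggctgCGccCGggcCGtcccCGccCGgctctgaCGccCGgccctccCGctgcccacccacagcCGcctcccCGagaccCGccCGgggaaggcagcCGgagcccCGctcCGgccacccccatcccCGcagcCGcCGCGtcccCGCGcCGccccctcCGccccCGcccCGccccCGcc
Cacnb3: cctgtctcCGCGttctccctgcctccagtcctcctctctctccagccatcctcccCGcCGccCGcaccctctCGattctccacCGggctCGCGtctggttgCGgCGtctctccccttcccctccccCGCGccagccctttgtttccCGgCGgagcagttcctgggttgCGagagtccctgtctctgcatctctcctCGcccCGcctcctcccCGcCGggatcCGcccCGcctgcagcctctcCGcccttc
Scn1a: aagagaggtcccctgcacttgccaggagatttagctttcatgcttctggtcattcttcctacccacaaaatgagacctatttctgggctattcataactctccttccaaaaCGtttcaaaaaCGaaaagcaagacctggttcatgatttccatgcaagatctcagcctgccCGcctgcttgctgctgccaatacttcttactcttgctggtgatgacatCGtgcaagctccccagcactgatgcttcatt
Scn4a: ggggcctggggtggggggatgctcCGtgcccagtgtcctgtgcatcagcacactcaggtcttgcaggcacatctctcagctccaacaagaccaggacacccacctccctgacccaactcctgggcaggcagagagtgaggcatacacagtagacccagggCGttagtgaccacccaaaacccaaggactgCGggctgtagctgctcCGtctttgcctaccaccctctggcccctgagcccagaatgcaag

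The levels showed which channel genes the E13 telencephalon transcribes. Per kilobase of exons, the gamma subunit genes Cacng7 and Cacng4 and the calcium channel beta gene Cacnb3 stood highest, at 100 ± 14.3, 67.0 ± 5.89 and 64.5 ± 10.5 CPM per kilobase (SD, n = 4 libraries). Cacng7 lay above Cacng4 in every library, while Cacng4 and Cacnb3 overlapped. The next level, apart from Cacnb3, held Cacnb1 at 21.0 ± 3.80, Scn3b at 18.5 ± 1.87 and the T-type pore Cacna1h at 17.7 ± 1.62 CPM per kilobase, which overlapped each other. Below them, again with a gap, came Cacna2d2 at 11.2 ± 1.73 and Cacng8 at 11.0 ± 2.17. Auxiliary subunit genes thus took all of the first 5 places in this order, and Cacna1h was the highest pore gene. Of the sodium channel pores, Scn8a was highest at 5.10 ± 0.340 CPM per kilobase, with Scn3a at 3.37 ± 1.11, Scn2a at 1.45 ± 0.294 and Scn1a at 0.751 ± 0.185. Over the whole order of 39 genes, 8 of the 38 neighbouring pairs were apart in all libraries and 30 overlapped.

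**Figure D1:**
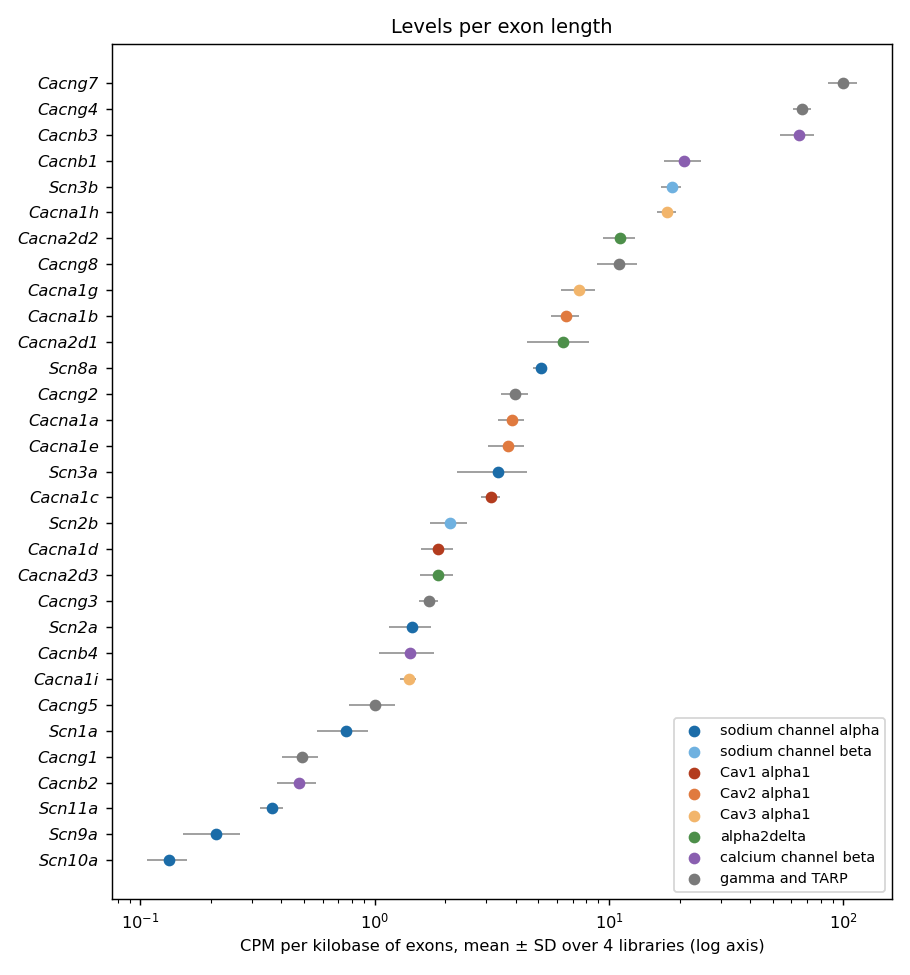
Level of each of 31 tested channel genes in CPM per kilobase of exons, on a log axis, as the mean with SD over the 4 libraries, colored by role. Cacng7, Cacng4 and Cacnb3 lie above 60 CPM per kilobase, and the peripheral sodium channel genes Scn11a, Scn9a and Scn10a lie below 0.4.

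Between the genotypes, no channel gene passed the test. Of the 39 members, 33 had enough counts to be tested, and 0 of them were called at the thresholds of the study, a fold of at least 2 with an unadjusted p of at most 0.05, against 131 of 16145 genes over the whole table (0.811%). With the Benjamini-Hochberg adjusted p of edgeR's quasi-likelihood test, 0 members and 0 genes of the table (0.0%) were under 0.05, and the members had an adjusted p of 0.9999. At an unadjusted p under 0.05 there was 1 member, Scn3a, where the background was 1.23% of all genes. DESeq2 called 0 members as well, and Scn3a was the member under 0.05 there too, at an unadjusted p of 0.0169. The log2 fold changes, cKO over WT, ran from -0.69 to 0.44 with standard errors of 0.15 to 0.54, and 24 of the 33 lay within 0.20 of 0. Of these estimates 22 were below 0, which is 66.7% where 52.1% of all genes tested lay below 0. Their median was -0.04 against -0.01 over all genes tested. Single libraries set both values, since the median was -0.14 without WT 1, 0.040 without WT 2, -0.022 without cKO 1 and -0.18 without cKO 2, with 24, 15, 17 and 24 estimates below 0. In 3 members, Scn3a, Scn9a and Cacna2d3, both cKO libraries were below both WT libraries, or 9.09% of those tested, against 10.8% of all genes. In 2 members, Scn10a among them, both were above, or 6.06% against 11.0%. Both shares of members without overlap are below those of all genes. A change within these standard errors was not detectable with 2 libraries a group, and a larger one could be missed too. Scn3a, at -0.69 with an SE of 0.28, had an adjusted p of 0.9999 in the edgeR test.

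**Figure D2:**
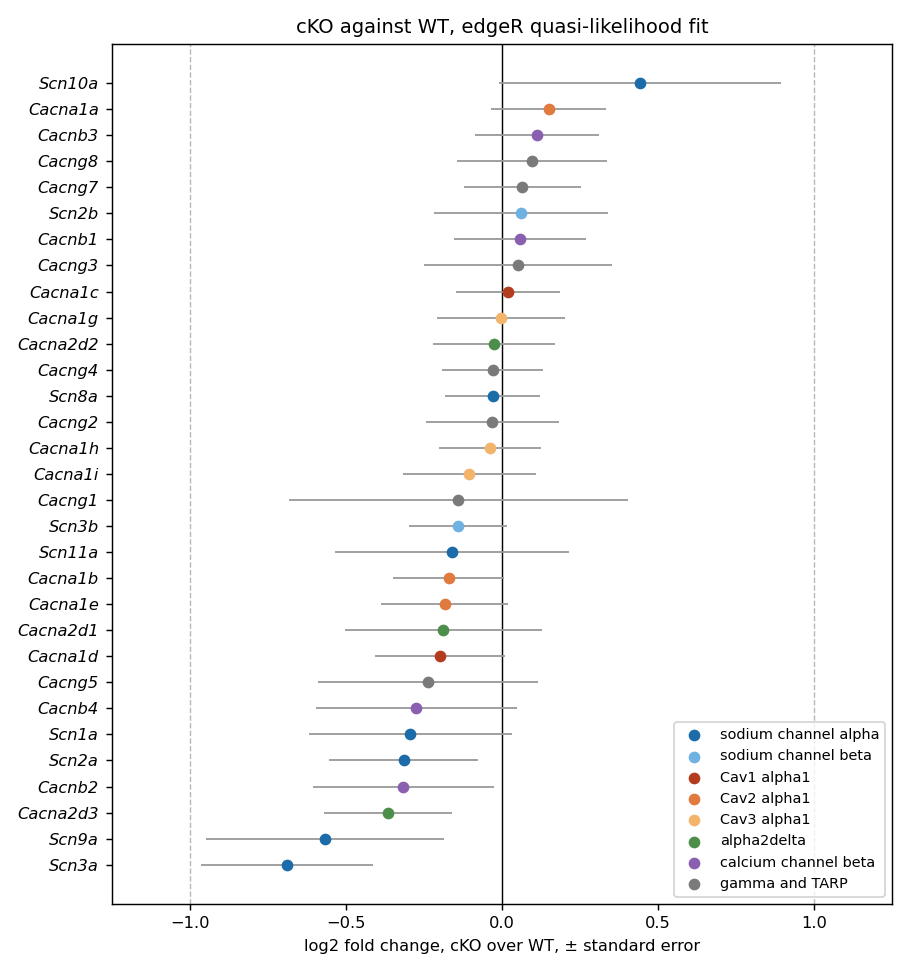
Log2 fold change of cKO over WT with its standard error for 31 tested channel genes, from the edgeR fit, ordered by value and colored by role, with dashed lines at a fold of 2 in each direction. Scn3a is lowest at -0.69 and Scn10a highest at 0.44, and no gene reaches a fold of 2.

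Among the sodium channel alpha genes, Scn3a had the lowest estimate of all members. It lies on chromosome 2 (GRCm38, 65457118 to 65567627, minus strand), in a row with Scn2a, Scn1a and Scn9a. Scn3a measured 52.4 and 51.2 CPM in WT, against 41.9 and 22.3 in cKO. The means were 51.8 ± 0.873 CPM in WT and 32.1 ± 13.8 CPM in cKO (SD, n = 2 each), and the log2 fold change was -0.69 (SE 0.28, edgeR, unadjusted p = 0.0371, adjusted p = 0.9999). Both cKO libraries were below both WT libraries, but cKO 2 lay much further below than cKO 1. Without cKO 1 the log2 fold change was -1.21, and without cKO 2 it was -0.29. Each of those fits has a lone cKO library and assumes that it varies like the others. With the replicate number as a block, the edgeR estimate was -0.75 with an unadjusted p of 0.00126 and an adjusted p of 0.583.

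Scn8a, the sodium channel that in mature neurons is concentrated at the axon initial segment and the nodes, was the most abundant pore of its class. Scn8a measured 74.9 and 87.7 CPM in WT, against 80.6 and 78.6 in cKO. The log2 fold change was -0.03 (SE 0.15), and the groups overlapped. Scn2a, the pore of the early axon initial segment, was lower. Scn2a measured 17.9 and 22.9 CPM in WT, against 19.0 and 13.8 in cKO, for a log2 fold change of -0.32 (SE 0.24), with cKO 2 the lowest library and WT 2 the highest. Scn9a, known from sensory and sympathetic neurons, had 61 and 53 counts in the WT pair and 47 and 31 in the cKO pair. The means were 3.19 ± 0.445 CPM in WT and 2.15 ± 0.590 CPM in cKO (SD, n = 2 each), and the log2 fold change was -0.57 (SE 0.38, edgeR, unadjusted p = 0.175). Its groups did not overlap. Scn1a, the pore of fast-spiking interneurons in older brain, showed 5.32 CPM in cKO 2 and 9.49, 8.96 and 9.73 CPM in WT 1, WT 2 and cKO 1. Only cKO 2 was low, as in Cacnb4 and Cacna2d1. Scn11a and Scn10a, both of nociceptive sensory neurons, lay at 1.80 to 2.30 and 0.863 to 1.31 CPM. Scn10a had 15 and 17 counts in the WT pair and 24 and 20 in the cKO pair, so that both cKO libraries were above both WT libraries, and its log2 fold change was the highest of the members, at 0.44 (SE 0.45). The 5 marker genes of peripheral sensory neurons summed to 37.6 to 46.6 CPM, most of it Isl1, which forebrain neurons also transcribe. Scn4a had 2 counts in WT 1 and 0 elsewhere, under the limit that a count of 0 allows.

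The sodium channel beta genes were led by Scn3b, and none of the 3 tested had separate groups. Scn3b measured 96.8 and 115 CPM in WT, against 91.1 and 101 in cKO, with a log2 fold change of -0.14 (SE 0.16). Scn2b measured 8.86 and 10.3 CPM in WT, against 7.98 and 11.98 in cKO, with a log2 fold change of 0.06 (SE 0.28). For Scn2b the lower and higher libraries were mixed between the genotypes. Scn4b, whose product takes part in resurgent sodium current in the adult brain, did not reach the count filter, with 8 and 10 counts in the WT pair and 1 and 3 in the cKO pair. The ratio of WT over cKO was 4.57, with an exact 95% interval for counting error of 1.51 to 18.6. Fitted with no filter on low counts, its log2 fold change was -2.11 (SE 1.07, unadjusted p = 0.0498, adjusted p = 0.99997), which meets the study's thresholds without passing the adjusted test.

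**Figure D3:**
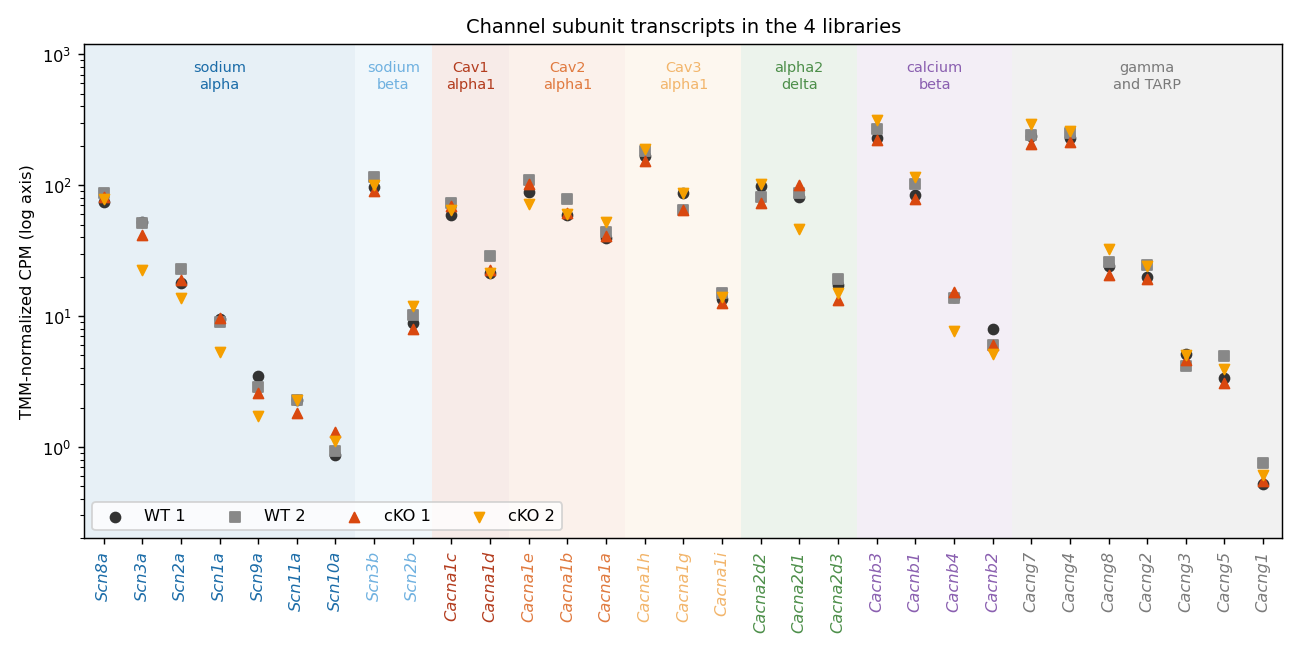
TMM-normalized CPM of 31 tested channel genes in WT 1, WT 2, cKO 1 and cKO 2, on a log axis, grouped and colored by role with the gene of highest CPM in each role at the left. Points of the 4 libraries lie close together in most genes, and cKO 2 is set off downward in Scn3a, Scn1a, Cacna2d1 and Cacnb4.

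Pores of the L-type (Cav1) class were represented by the neuronal genes Cacna1c and Cacna1d. Cacna1c measured 59.1 and 73.3 CPM in WT, against 69.1 and 64.9 in cKO, with a log2 fold change of 0.02 (SE 0.17). Cacna1d measured 21.4 and 28.9 CPM in WT, against 22.6 and 21.3 in cKO, with a log2 fold change of -0.20 (SE 0.21). WT 2 was the highest library in both, and for Cacna1d the other 3 lay together. Cacna1s, the voltage sensor of skeletal muscle, had 2, 2, 7 and 6 counts, and Cacna1f, the L-type channel of photoreceptors, had 0, 4, 7 and 3. Their ratios of cKO over WT were 3.20 (0.988 to 13.5) and 2.46 (0.709 to 10.7), with exact 95% intervals that include 1. Cacna1s shares 20.0% of its exon bases with a gene on the opposite strand, and the strand setting of the count is not given in the sources used here. The skeletal muscle markers summed to 1.42 to 2.93 CPM.

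Genes of the Cav2 class, the presynaptic channels, were all transcribed at this stage. Cacna1e measured 88.7 and 109 CPM in WT, against 102 and 72.2 in cKO, with a log2 fold change of -0.18 (SE 0.20) for this R-type pore. Cacna1b measured 59.4 and 78.0 CPM in WT, against 61.6 and 60.5 in cKO, with a log2 fold change of -0.17 (SE 0.18) for this N-type pore. Cacna1a measured 39.8 and 43.8 CPM in WT, against 40.7 and 52.0 in cKO, with a log2 fold change of 0.15 (SE 0.18) for this P/Q-type pore. For Cacna1e cKO 2 was the lowest library, for Cacna1a it was the highest, and in all 3 genes the groups overlapped.

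T-type (Cav3) transcripts were the most abundant of the calcium channel pores, through Cacna1h. Cacna1h measured 167 and 183 CPM in WT, against 153 and 187 in cKO, with a log2 fold change of -0.04 (SE 0.16). Cacna1g measured 87.2 and 64.7 CPM in WT, against 65.0 and 86.5 in cKO, with a log2 fold change of -0.0034 (SE 0.21). Cacna1i measured 13.5 and 15.1 CPM in WT, against 12.5 and 14.0 in cKO, with a log2 fold change of -0.10 (SE 0.21). In Cacna1g, WT 1 and cKO 2 were high and WT 2 and cKO 1 were low, so that the genotype means were nearly equal. For Cacna1h and Cacna1i the ranges of the groups overlapped.

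Of the alpha2delta genes, whose products are the binding site of gabapentin in the case of Cacna2d1 and Cacna2d2, 3 of 4 could be tested. Cacna2d1 measured 80.7 and 86.8 CPM in WT, against 101 and 45.9 in cKO. The means were 83.8 ± 4.35 CPM in WT and 73.5 ± 39.0 CPM in cKO (SD, n = 2 each), and the log2 fold change was -0.19 (SE 0.32, edgeR, unadjusted p = 0.567). Here cKO 1 was the highest of the 4 libraries and cKO 2 the lowest. Without cKO 1 its log2 fold change was -0.86, and without cKO 2 it was 0.28, so the direction was decided by which cKO library was kept. Cacna2d2 measured 98.1 and 81.2 CPM in WT, against 73.6 and 103 in cKO, with a log2 fold change of -0.03 (SE 0.20). Cacna2d3 measured 17.1 and 19.3 CPM in WT, against 13.2 and 15.1 in cKO, with a log2 fold change of -0.36 (SE 0.21, edgeR, unadjusted p = 0.113). Both cKO libraries of Cacna2d3 were below both WT libraries, and leaving out each library in turn gave -0.45 to -0.27. Cacna2d4, a retinal subunit, had 2 counts in WT 2 and 0 elsewhere.

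The calcium channel beta genes spanned a wide range of levels, from Cacnb3 down to Cacnb2. Cacnb3 measured 230 and 267 CPM in WT, against 222 and 315 in cKO, with a log2 fold change of 0.11 (SE 0.20). Cacnb1 measured 84.8 and 102 CPM in WT, against 77.8 and 116 in cKO, with a log2 fold change of 0.06 (SE 0.21). In both, cKO 2 was the highest library and cKO 1 the lowest. Cacnb4 measured 14.1 and 13.6 CPM in WT, against 15.2 and 7.72 in cKO, with a log2 fold change of -0.27 (SE 0.32), and here cKO 2 was lowest and cKO 1 highest. Cacnb2 measured 7.94 and 5.97 CPM in WT, against 6.01 and 5.15 in cKO, with a log2 fold change of -0.32 (SE 0.29), where WT 1 was set off upward. Like Cacna1s, Cacnb4 shares exon bases with a gene on the opposite strand, in its case 16.0%.

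Gamma subunit transcripts were dominated by the TARP genes Cacng7 and Cacng4. Cacng7 measured 238 and 240 CPM in WT, against 208 and 292 in cKO, with a log2 fold change of 0.07 (SE 0.19). Cacng4 measured 231 and 253 CPM in WT, against 214 and 260 in cKO, with a log2 fold change of -0.03 (SE 0.16). Cacng8 measured 24.0 and 26.0 CPM in WT, against 20.7 and 32.8 in cKO, with a log2 fold change of 0.10 (SE 0.24). In all 3 genes cKO 1 was the lowest library and cKO 2 the highest, with the WT libraries between them. Cacng2, the gene mutated in the stargazer mouse, lay at 19.2 to 24.5 CPM, while Cacng3 and Cacng5 lay at 4.18 to 5.12 and 3.06 to 4.94 CPM. Cacng1, the gamma subunit of the muscle calcium channel, had 9 to 14 counts a library, and Cacng6 had 4, 0, 1 and 2. Genes that are neighbours on a chromosome differed widely in level, as the cluster of Cacng7, Cacng8 and Cacng6 on chromosome 7 showed.

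For most channel genes the log2 ratio of the 2 libraries of a genotype was larger in size than the log2 fold change. Each fold change compares means of 2 libraries, so by design a ratio of 2 single libraries varies more. Such a ratio is the larger in most genes even where the genotypes do not differ. In 25 of the 33 tested members (75.8%) the log2 ratio of cKO 2 over cKO 1 was larger in size than the log2 fold change, as it was in 72.5% of all genes tested, and its median size was 0.33 against 0.14 for the fold change. The WT libraries also differed by more than the fold change in 23 members (69.7%), against 58.2% of all genes, with a median size of 0.23. The ratio within cKO moved with the base composition of the transcripts. Across the 33 tested members, the log2 ratio of cKO 2 over cKO 1 rose with the GC content of the gene's transcripts (Spearman's rho 0.71, Pearson's r 0.79). GC content was taken over all annotated transcripts of a gene, so bases shared by several transcripts count several times. Over 16120 genes of the table with a known GC content the same correlations were 0.63 and 0.61. This is across genes, which are not independent replicates and share the 2 libraries, so no p is given. With all genes split into 5 equal bins of GC content, the 6 members in the lowest bin (28.7% to 44.5%), Cacnb4, Scn3a, Cacna2d1, Scn1a, Scn2a and Scn9a, were all lower in cKO 2 than in cKO 1, with a median log2 ratio of -0.85 against -0.48 for all genes of that bin. Of the 11 members in the highest bin (55.6% to 75.5%), 1 was lower in cKO 2, and the median was 0.35 against 0.30. GC content ran from 39.7% in Cacnb4 to 64.1% in Cacng8. Between WT 2 and WT 1 the ratio had a rho of 0.13 with GC content over the members and 0.15 over all genes. The fold change between genotypes, which holds the same libraries, had a rho of 0.77 with GC content over the members and 0.26 over all genes.

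**Figure D4:**
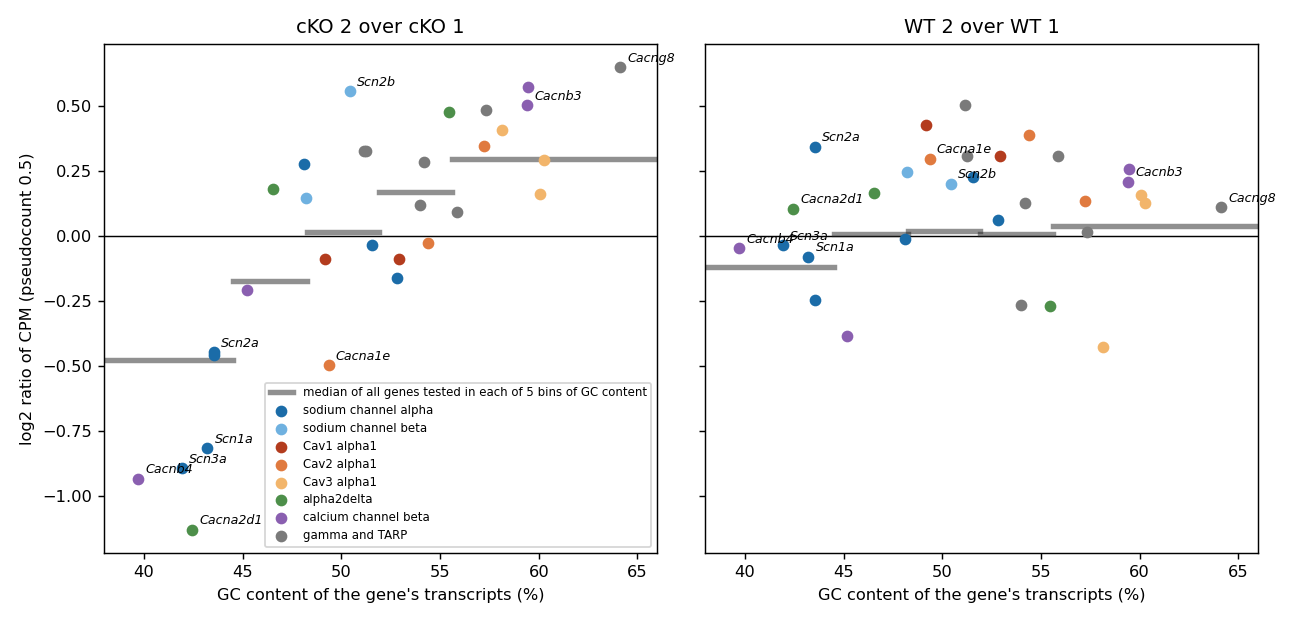
Log2 ratio of the CPM of cKO 2 over cKO 1 (left) and of WT 2 over WT 1 (right) against the GC content of the gene's transcripts, for 31 tested channel genes colored by role, with gray bars for the median of all genes tested in each of 5 equal bins of GC content. At the left, Cacna2d1, Cacnb4, Scn3a and Scn1a lie at or below -0.8 at the low end of GC content and Cacng8 lies at 0.65 at the high end, while the right panel shows no such spread at the low end.

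Exon length moved with the same ratio. The tested members had a median of 8764 bases of exons against 4140 for all genes tested, and the log2 ratio of cKO 2 over cKO 1 had a rho of -0.65 with exon length over the members and -0.32 over all genes. The 10 cortical neuron markers summed to 5206 CPM in cKO 1 and 4907 in cKO 2, and 5 of them were lowest in cKO 2 while the other 5 were highest there. Dcx measured 524 CPM in cKO 2 against 855 to 1114 in the other 3 libraries, and Map2 400 CPM against 698 to 754. Tubb3 measured 2274 CPM in cKO 2 against 1693 to 2053, and Stmn2, which at 43.6% GC lies in the lowest bin, 588 CPM against 452 to 519. When the fit carried an offset for GC content, the log2 fold change of Scn3a was -0.60 (edgeR, unadjusted p = 0.00634, adjusted p = 0.9998), and with an offset for exon length it was -0.65 (unadjusted p = 0.0169). With the GC offset some other estimates moved toward 0, Cacnb4 from -0.27 to -0.13, Cacnb3 from 0.11 to 0.061 and Cacnb1 from 0.057 to 0.0037. Others stayed in place or moved away from 0, with Cacna1d at -0.198 and then -0.199, and Cacna1b going from -0.171 to -0.195. The median of the tested members went from -0.039 to -0.076 with this offset. In bulk tissue, fewer cells of a type and less RNA per cell cannot be told apart, and the part that RNA quality or library preparation had in the difference between the cKO libraries was not tested.

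Summed markers of other cell types also differed between libraries. Those of the ventral telencephalon, which supplies interneurons, were 644 CPM in cKO 1 and 930 to 950 in the other 3 libraries. All 8 genes of this list had estimates below 0, with 0 called. Gad1 measured 79.8 and 73.4 CPM in WT, against 57.5 and 54.9 in cKO, and Gad2 116 and 116 against 97.6 and 99.2. In Gad1 and Gad2 both cKO libraries were below both WT libraries, while the groups overlapped in the other genes of the list. Of the tested members, 14 (42.4%) were lowest in cKO 1, against 27.3% of all genes tested. In WT 2, 13 (39.4%) were highest, against 17.6% of all genes. Of the 11 members in the highest bin of GC content, 1 was lower in cKO 2 than in cKO 1. The part of GC content or of cell types in these shares was not tested. Endothelial markers summed to 190 and 143 CPM in WT and 125 and 127 in cKO, pericyte markers to 122 and 88.1 against 84.4 and 82.5, and blood genes to 410 and 313 against 233 and 353. Microglia genes summed to 19.6 to 30.7 CPM, and genes of Schwann cells and neural crest glia to 8.79 to 14.3. Intermediate progenitor genes lay at 648 to 726 CPM and Cajal-Retzius genes at 323 to 386. Of these lists, choroid plexus had 3 of 3 tested genes called lower in cKO, and mesenchyme and meninges had 2 of 6. The other lists had no call, where 0.811% of all genes tested were called. In every called gene WT 1 was the highest library. Kcne2, for example, measured 10.5 and 0.217 CPM in WT, against 0.710 and 0.336 in cKO. Apart from Aqp1, the groups overlapped in the called genes. The part of the listed cell types in the levels of the channel genes was not tested.

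Genes of channel partners, of channel regulators and of related cation channels gave no call either. None of the 14 tested sodium channel partners and the 14 tested calcium channel regulators was called. The same held for the 8 tested genes of related cation channels and their partner proteins. Over all genes tested, 131 of 16145 were called (0.811%). At that share most lists this short hold no call, so the absence of calls does not set these lists apart from other genes. In the order in which the lists are named, the medians were -0.03, -0.01 and -0.15 on the log2 scale. Among sodium channel partners, Fgf12, an intracellular growth factor homolog that binds the channel's tail, had 126 and 130 counts in the WT pair and 106 and 96 in the cKO pair (log2 fold change -0.36, SE 0.27). The ubiquitin ligase Nedd4 was the most abundant of them, at 1372 to 1573 CPM and a log2 fold change of -0.0033. Among calcium channel regulators, Cachd1, a protein related to alpha2delta, lay at 86.7 and 75.9 CPM in WT and 108 and 95.1 in cKO. Both cKO libraries were above both WT libraries, and its log2 fold change was 0.32 (SE 0.16, edgeR, unadjusted p = 0.0739). The scaffold kinase Cask had a log2 fold change of -0.08. Nalcn, the sodium leak channel, had its libraries in the same order as Scn3a, with 14.0 and 12.6 CPM in the WT pair against 10.2 and 7.28 in cKO libraries 1 and 2 (log2 fold change -0.60, SE 0.26, edgeR, unadjusted p = 0.0467, adjusted p = 0.9999), and its transcripts have a GC content of 43.3%. Its partner Unc79 stood at 63.7 to 77.8 CPM with a log2 fold change of -0.01.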

How the data were processed

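The authors sequenced 4 RNA-seq libraries of E13 telencephalic tissue, and the processing notes of the submitters name Bowtie2 2.2.3, TopHat2 2.0.12, HTSeq 0.6.0 and the build mm9. The deposited values used here are raw counts of reads per gene, not normalized. The gene positions in the table match GRCm38 (GENCODE M21) for 97.2% of the 27232 genes found there and for all 39 members, within 1 base, and were read as GRCm38. Strand setting and the treatment of reads shared by paralogs, such as the sodium channel alpha genes, are not given in the sources used here. Of 27304 rows, 11 without a gene (0.0403% of rows) were left out. The deposited fold changes, p-values and mean normalized counts, and a second table of cKO 1 and WT 1, were not used.

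Counts were fitted with edgeR 4.0.16 in R 4.3.3 (TMM, filterByExpr, quasi-likelihood test, no covariate, Benjamini-Hochberg over 16145 genes). CPM are TMM-normalized, per kilobase of the union of exons, and ratios of single libraries carry a pseudocount of 0.5 CPM. Intervals are exact at 95% (scipy 1.17.1). The code of the fit and of the offsets was tested on simulated counts with large seeded changes or a seeded GC trend. This does not measure how well smaller changes are found with these libraries. The alternatives were RLE or upper-quartile scaling, no filter, at least 10 counts in every library, DESeq2 1.42.0, the replicate number as a block, leaving out each library, and offsets for GC content or exon length, which were added after seeing the data. Described in full were the 3 most abundant tested members of each class, members called, and the 5 members with the smallest unadjusted p. Of each partner list (sodium channel partners, calcium channel regulators, other cation channels) the gene with the smallest p and the most abundant gene are given. Other members named with values were chosen after these were seen. The values of 2 members are not reported here, and these members enter only the counts and summaries. The members and lists were chosen with earlier results of these data known. The promoters are from RefSeq.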

Additional observations from a re-analysis of the deposited data

How the results depend on the processing

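The count of members called at the study's thresholds was 0 of 33 tested, and 1 of 39 with no filter on low counts (Scn4b). It was 0 in the other fits that kept all 4 libraries. The count of members with an adjusted p under 0.05 was 0 in every fit that kept all 4 libraries. Over the whole table, the study's thresholds called 131 of 16145 genes tested, and 405 of 27293 with no filter. They called 72 of 14939 with a minimum of 10 counts in each library and 65 of 16145 with DESeq2. An adjusted p under 0.05, whatever the fold, was reached by 0 genes in the main fit. It was reached by 65 of 27293 with no filter and by 5 of 16145 with the replicate block. Fits that leave out a library hold a lone library in 1 group, so only their effect sizes are given. Among these, the log2 fold change of Scn3a passed a fold of 2 without cKO 1 (-1.21). For the 24 members described in full, the log2 fold change changed sign in 9 of 192 values outside the left-out libraries, all near 0. These were Cacna1g with RLE scaling (0.00015), upper-quartile scaling (0.00031), no filter (0.0024), DESeq2 (0.00012) and the length offset (0.077), Cacna1c with the GC offset (-0.0036), and Cacna1h (0.038), Cacna2d2 (0.038) and Scn8a (0.062) with the length offset. The cause was not tested.

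Leaving out each library in turn gave log2 fold changes of both signs for some members, -0.024 to 0.32 for Cacna1a, -0.36 to 0.052 for Cacna1b, -0.13 to 0.19 for Cacna1c, -0.40 to 0.049 for Cacna1d, -0.45 to 0.057 for Cacna1e, -0.21 to 0.23 for Cacna1g, -0.18 to 0.10 for Cacna1h, -0.86 to 0.28 for Cacna2d1, -0.27 to 0.20 for Cacna2d2, -0.25 to 0.32 for Cacnb1, -0.15 to 0.34 for Cacnb3, -0.84 to 0.15 for Cacnb4, -0.17 to 0.11 for Cacng4, -0.19 to 0.29 for Cacng7, -0.26 to 0.39 for Cacng8, -0.25 to 0.33 for Scn2b and -0.14 to 0.10 for Scn8a. Without a change of sign, it gave -1.21 to -0.29 for Scn3a, -0.87 to -0.30 for Scn9a, -0.56 to -0.09 for Scn2a, -0.49 to -0.10 for Cacnb2, -0.26 to -0.00035 for Scn3b and -0.19 to -0.0068 for Cacna1i. Each such fit leaves a lone library in a group, which is assumed to vary like the others.

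Replicate numbers are shared by WT and cKO, but no source ties a number to a litter or a day, and there are only 2 pairs. Deviations of same-numbered libraries had a correlation of 0.14 over 14634 genes. With the replicate block, 208 genes were called (5 with an adjusted p under 0.05), 0 of them members, and the pairing changed no other call on members.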
